A study of Homo sapiens with 12 samples.

Results

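The canonical intracellular p53 effectors are proteins that act inside the cell once p53, a transcription factor, has raised their genes. The set named 10 genes: *TP53I3*, *TP53INP1*, *ZMAT3*, *PHLDA3*, *RPS27L*, *TRIAP1*, *AEN*, *CYFIP2*, *FDXR* and *FBXO22*. They were looked up in the array annotation through probe sets paired with exactly 1 gene, which gave 23 of the 54675 probe sets on the array and covered 9 of the 10 genes. *FDXR*, the mitochondrial ferredoxin reductase gene, had no such probe set in the annotation used here and was not analysed here. Of the 23 probe sets, 22 passed a filter on low signal, and these 22 still covered the 9 genes. The names were given without a threshold on any value in these arrays, but with earlier results of these data known. The counts of members called below are therefore a description.

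RNA came from U2OS cells, a long-established line from a human osteosarcoma whose p53 is wild type, and was measured on Affymetrix Human Genome U133 Plus 2.0 arrays. There were 4 groups of 3 arrays. Cells given 0.6 µg/ml doxorubicin, which traps topoisomerase II on DNA and so breaks it, were set against untreated cells, and cells given 10 µM nutlin-3, which frees p53 from its inhibitor MDM2 without breaking DNA, were set against cells in 0.1% DMSO. Every group was taken at 24 hours. All 4 groups are the same single cell line. Nothing in the labels ties a replicate to a culture of its own, and p-values here cover just the spread among these arrays, which may be technical.

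Under stress p53 escapes from MDM2, accumulates and binds DNA at pairs of a consensus decamer, and the genes beside these sites rise. The members differ in what their proteins do. They produce or limit oxidative stress, dampen growth signalling, act on RNA and ribosomes, digest DNA, protect mitochondria or tag proteins for destruction.

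All 9 measured members rose with both agents. In RNA from whole cultures, more cells expressing a gene and more RNA per cell cannot be told apart. With doxorubicin 9 of 9 were higher, where 30.1% of all 13673 genes tested were called higher, and the members' median log2 change was 1.18 against 0.08 for all genes. With nutlin-3 9 of 9 were higher, where 12.5% of all genes were, with a median of 1.45 against 0.01. Of all genes, 8.24% were called higher with both agents. A change of at least 1 on the log2 scale was reached by 6 of the 9 with doxorubicin, where 10.0% of all genes rose that far, and by 7 of the 9 with nutlin-3, where 2.60% did. Calls throughout are at an adjusted p under 0.05 from limma, with Benjamini-Hochberg adjustment over all genes tested. Changes are on the scale of log2(signal + 16), and each gene was read from its probe set with the highest mean log2 value. Every doxorubicin array lay above every untreated array for each of the 9, which held for 32.4% of all genes, and every nutlin-3 array lay above every DMSO array for each of them, which held for 21.2%.

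Reference promoters of the members that rose together are shown to give the sequence beside these genes. All RefSeq promoter windows of GRCh38.p14 at hand, which run from 250 bases before to 50 bases after a transcription start, were searched. Matches are given for 6 of the 9 measured members, in 8 windows. None are given for the remaining members, among them the one with the largest doxorubicin rise. The member counts below do not cover them. The consensus p53 decamer is a run of purines, a C, a pair of A or T, a G and a run of pyrimidines, and it reads the same on both strands. An exact decamer was found in 2 of these 8 windows, those of *AEN* and *RPS27L*, and in 6.63% of all 35116 windows. A pair of decamers up to 13 bases apart, with at most 3 mismatches that leave the C and the G in place, was found in 3 of the 8 windows and in 12.8% of all windows. Both strands were searched, and matches may overlap. The pairs were, with capitals marking the decamers:
AEN pair, chr15:88621306-88621325, plus strand: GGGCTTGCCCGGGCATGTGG
RPS27L pair, chr15:63157527-63157546, minus strand: GGCCTAGAGCAGACAAGCCC
ZMAT3 pair, chr3:179071867-179071892, minus strand: GGGCCTGCTCcgccaaGCACATGCGC
The *AEN* pair held 2 mismatches with no base between the decamers. Of all windows, 2.93% held a pair with at most 2 mismatches and a spacer of up to 13 bases. An adjacent pair with at most 2 mismatches was held by 0.285%, a narrower class that has the form of the *AEN* pair itself. The *AEN* pair began at position -34 from the start, and the *RPS27L* pair, with 3 mismatches and no spacer, at -69. The *ZMAT3* pair had 3 mismatches, a spacer of 6 bases and a first base at -83.

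The whole windows of *AEN* and *TP53I3* show a member with such a pair and one of the members with the largest rises, in which no pair and no exact decamer was found. Capitals mark the *AEN* pair, and the *TP53I3* window has none:
AEN, chr15:88621090-88621389, plus strand: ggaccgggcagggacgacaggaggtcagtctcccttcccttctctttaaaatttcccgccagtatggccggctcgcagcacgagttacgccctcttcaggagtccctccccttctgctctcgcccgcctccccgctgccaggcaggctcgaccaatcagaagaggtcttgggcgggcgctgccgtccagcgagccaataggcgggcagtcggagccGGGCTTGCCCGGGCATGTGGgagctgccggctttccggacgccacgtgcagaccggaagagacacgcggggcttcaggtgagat
TP53I3, chr2:24084785-24085084, minus strand: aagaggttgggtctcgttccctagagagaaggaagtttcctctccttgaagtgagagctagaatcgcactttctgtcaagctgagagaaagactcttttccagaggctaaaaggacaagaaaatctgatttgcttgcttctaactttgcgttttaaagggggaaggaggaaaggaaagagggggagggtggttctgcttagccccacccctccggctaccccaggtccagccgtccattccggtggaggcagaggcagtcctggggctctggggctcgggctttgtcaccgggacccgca
A match in these windows is a description of the letters, not a binding site. p53 is known to act on *TP53I3* through a microsatellite of repeated pentanucleotides, which was not searched for. *CYFIP2* and *TRIAP1* had windows with neither a pair nor an exact decamer.

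**Figure D1:**
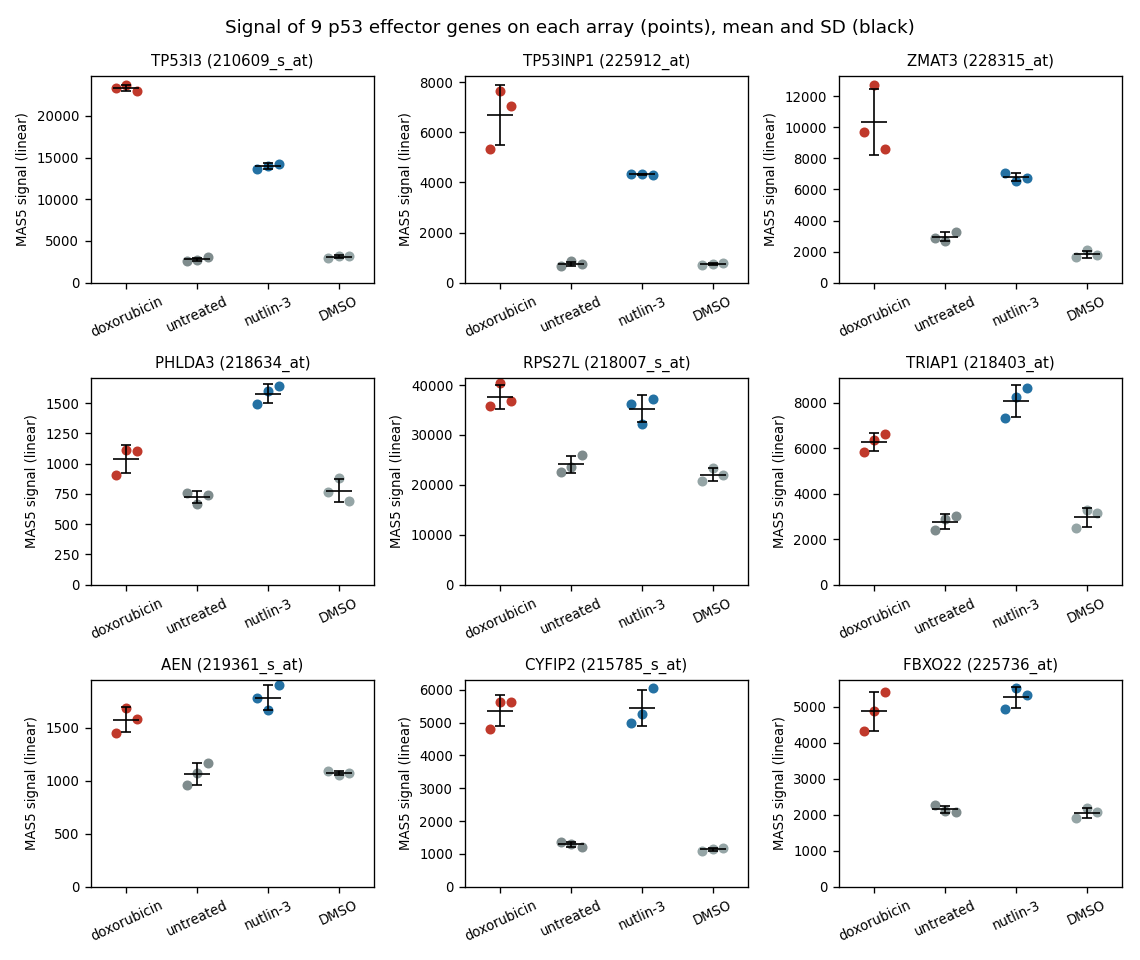
Linear MAS5 signal (vertical axis, from 0) of the representing probe set of each of the 9 measured members in the 4 groups. Points are single arrays (3 per group) and black bars are the mean and SD. For each of the 9 genes every treated array lies above every array of its own control.

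*TP53I3* and *TP53INP1* rose most of the members with doxorubicin, and both rose more with doxorubicin than with nutlin-3. The *TP53INP1* difference was not called under every scaling of the arrays. *TP53I3* (chr2:24077433-24084834) in GRCh38.p14, the build of all gene positions here, encodes a quinone oxidoreductase that generates reactive oxygen species. Its signal was 23378, 23726 and 23019 on the doxorubicin arrays, against 2618, 2751 and 3037 on the untreated arrays. With nutlin-3 the signal was 13573, 13999 and 14274 on the nutlin-3 arrays, against 2950.2, 3161 and 3242 on the DMSO arrays. The treated arrays stood clear of their controls, and every doxorubicin array was above every nutlin-3 array. The log2 change was 3.06 (SE 0.07, adjusted p = 2.3e-14) with doxorubicin and 2.16 (SE 0.07, adjusted p = 9e-12) with nutlin-3. Ranked from the largest rise, *TP53I3* stood at 66 of 13673 genes with doxorubicin and at 48 with nutlin-3.

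*TP53INP1* (chr8:94925972-94949378) encodes a stress-induced protein of autophagy and apoptosis that also helps to activate p53. The signal of its brightest probe set was 5337, 7661 and 7057 on the doxorubicin arrays, against 684.4, 852.9 and 732.4 on the untreated arrays. The doxorubicin arrays spread more widely than those of any other group. With nutlin-3 the signal was 4332, 4328 and 4299.9 on the nutlin-3 arrays, against 722.4, 750.0 and 770.6 on the DMSO arrays, and the 3 nutlin-3 arrays lay within a narrow band below all doxorubicin arrays. The log2 change was 3.11 (SE 0.12, adjusted p = 1.9e-12) with doxorubicin and 2.51 (SE 0.12, adjusted p = 1.9e-10) with nutlin-3, ranks 59 and 25 among all genes. A further probe set, 244721_at, read 279.3, 280.7 and 222.7 on the doxorubicin arrays, against 34.2, 12.3 and 13.4 on the untreated arrays, and 145.0, 84.5 and 152.3 on the nutlin-3 arrays, against 14.5, 7.06 and 12.5 on the DMSO arrays. It passed the filter only through the treated groups, since both control groups lay under the filter signal of 49.3. The remaining probe set, 235602_at, had between 1.65 and 35.5 with nutlin-3 and at most 18.2 in the other groups, did not pass the filter and was not tested.

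*ZMAT3* (chr3:179017223-179072513) encodes a zinc finger protein that binds RNA and regulates splicing and mRNA stability. Its brightest probe set, 228315_at, read 9690.1, 12742 and 8589.9 on the doxorubicin arrays, against 2893, 2681 and 3256 on the untreated arrays. It read 7052, 6523 and 6760.5 on the nutlin-3 arrays, against 1629, 2089 and 1761 on the DMSO arrays. Both treated groups stood above both control groups, and the doxorubicin arrays were above the nutlin-3 arrays. On the log2 scale the change was 1.79 (SE 0.12, adjusted p = 3.4e-09) with doxorubicin and 1.89 (SE 0.12, adjusted p = 1e-08) with nutlin-3, and for this probe set the DMSO arrays were also below the untreated arrays. The other 4 probe sets of the gene rose with both agents too, by 1.39 to 2.40 with doxorubicin and by 1.78 to 2.20 with nutlin-3. Of all probe sets tested, 23.4% were called higher with doxorubicin and 8.33% with nutlin-3.

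*CYFIP2* (chr5:157266123-157395594) encodes a subunit of the WAVE complex, which drives actin branching, and is a known p53 target in apoptosis. Its signal was 4809.6, 5615 and 5635 on the doxorubicin arrays, against 1347, 1314 and 1195 on the untreated arrays. With nutlin-3 it was 4993, 5270.0 and 6048 on the nutlin-3 arrays, against 1095, 1149 and 1182 on the DMSO arrays. Treated arrays of the agents overlapped, and all stood above every control array. Its log2 change was 2.04 (SE 0.09, adjusted p = 1.9e-11) with doxorubicin and 2.23 (SE 0.09, adjusted p = 5.5e-11) with nutlin-3, and the rank among all genes was 281 with doxorubicin and 41 with nutlin-3. The dimmer probe set 220999_s_at gave 1.97 and 1.97.

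*TRIAP1* (chr12:120443964-120446384) encodes a small protein that carries phosphatidic acid between the mitochondrial membranes with PRELI proteins and protects cells from apoptosis. Its signal was 5847, 6367 and 6618 on the doxorubicin arrays, against 2408, 2897 and 3017 on the untreated arrays. With nutlin-3 it was 7308, 8254 and 8653 on the nutlin-3 arrays, against 2484, 3271 and 3139 on the DMSO arrays. The nutlin-3 arrays all lay above the doxorubicin arrays, and the control groups overlapped each other. This gave a log2 change of 1.18 (SE 0.11, adjusted p = 1.2e-07) with doxorubicin and 1.45 (SE 0.11, adjusted p = 4.8e-08) with nutlin-3.

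*FBXO22* (chr15:75903878-75942511) encodes the substrate receptor of an SCF ubiquitin ligase that targets the histone demethylase KDM4A. Its brightest probe set read 4328, 4889 and 5400.1 on the doxorubicin arrays, against 2257, 2106 and 2077 on the untreated arrays. It read 4944, 5528 and 5322 on the nutlin-3 arrays, against 1910.1, 2175 and 2078 on the DMSO arrays. The treated groups overlapped each other and stood apart from both controls. Its log2 change was 1.17 (SE 0.09, adjusted p = 1.1e-08) with doxorubicin and 1.35 (SE 0.09, adjusted p = 1.1e-08) with nutlin-3.

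*RPS27L* (chr15:63148249-63157477) encodes a ribosomal protein closely related to RPS27 and linked to p53 stability. Its brightest probe set, 218007_s_at, lay between percentiles 99.57 and 99.95 of all probe sets on the 12 arrays. The signal was 35883, 40425 and 36721 on the doxorubicin arrays, against 22594, 23608 and 26051 on the untreated arrays. With nutlin-3 it was 36204, 32167 and 37287 on the nutlin-3 arrays, against 20737, 23316 and 21924 on the DMSO arrays. Treated and control arrays did not overlap. This gave a log2 change of 0.65 (SE 0.08, adjusted p = 4.7e-06) with doxorubicin and 0.68 (SE 0.08, adjusted p = 9.4e-06) with nutlin-3. Whether such bright signals understate a change was not tested.

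*AEN* (chr15:88604683-88632281) encodes a nuclease that digests DNA and RNA during apoptosis. Its signal was 1456, 1691 and 1582 on the doxorubicin arrays, against 957.7, 1076 and 1166 on the untreated arrays. With nutlin-3 it was 1777, 1669 and 1904 on the nutlin-3 arrays, against 1093, 1058 and 1077 on the DMSO arrays. Both treated groups lay above both control groups, and the treated groups overlapped each other. On the log2 scale the change was 0.56 (SE 0.10, adjusted p = 9e-05) with doxorubicin and 0.72 (SE 0.10, adjusted p = 2e-05) with nutlin-3.

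*PHLDA3* (chr1:201464278-201469188) encodes a pleckstrin homology domain protein that competes with AKT for membrane lipids. Its signal was 907.1, 1110.2 and 1106 on the doxorubicin arrays, against 761.5, 666.0 and 741.2 on the untreated arrays. With nutlin-3 it was 1490.0, 1602 and 1644 on the nutlin-3 arrays, against 763.0, 880.6 and 690.7 on the DMSO arrays. All nutlin-3 arrays were above all doxorubicin arrays, which in turn were above all control arrays, the order opposite to that of *TP53I3*. The log2 change was 0.51 (SE 0.11, adjusted p = 0.00082) with doxorubicin and 1.01 (SE 0.11, adjusted p = 2.6e-06) with nutlin-3. The rank was 3358 of all genes with doxorubicin and 352 with nutlin-3.

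**Figure D2:**
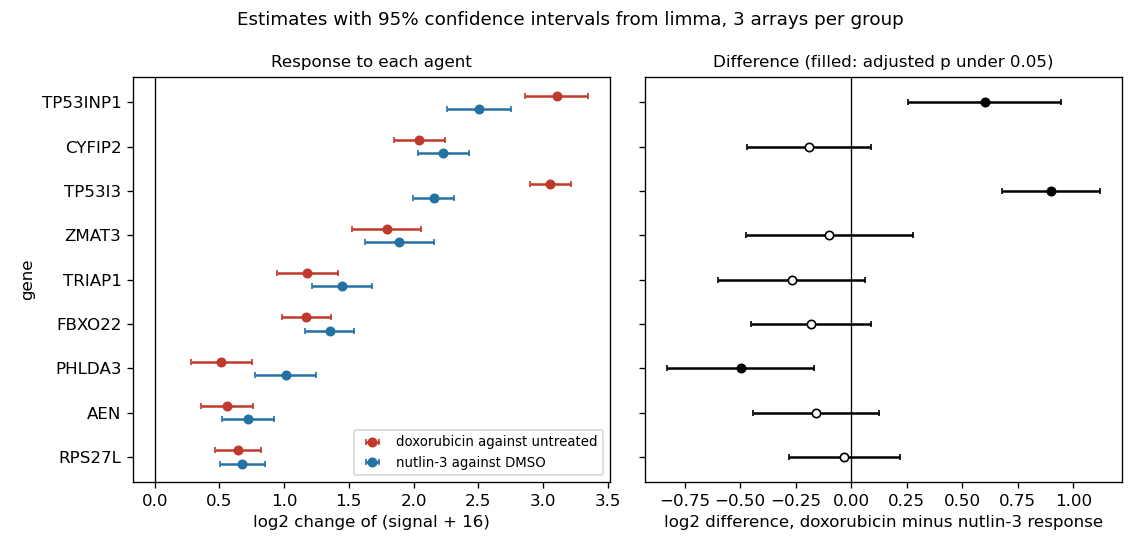
Left, log2 change of each measured member with doxorubicin against untreated (red) and with nutlin-3 against DMSO (blue). Right, the doxorubicin response minus the nutlin-3 response on the same log2 scale. Bars are 95% confidence intervals from limma with 3 arrays per group, and filled points on the right were called. *TP53I3* (0.90) and *TP53INP1* (0.60) lie to the right of 0 and *PHLDA3* (-0.50) to the left.

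The agents were compared through the difference of the responses, each read against its own control. Of the 9 members, 2 rose more with doxorubicin, where 21.8% of all genes did, and 1 rose more with nutlin-3, where 17.7% of all genes were called lower in this difference. These counts lie near the background and are no result about the members as a set. *TP53I3* differed by 0.90 (95% confidence interval 0.68 to 1.12, adjusted p = 4.9e-06) and *TP53INP1* by 0.60 (95% confidence interval 0.26 to 0.94, adjusted p = 0.0077). With array medians set equal, the *TP53INP1* difference was 0.45 and no longer called (adjusted p = 0.12, range over the alternatives 0.00044 to 0.12). In the fit of probe sets, 244721_at of this gene had 0.63 (95% confidence interval -0.28 to 1.54, adjusted p = 0.3) and was not called. *PHLDA3* differed by -0.50 (95% confidence interval -0.83 to -0.17, adjusted p = 0.018). This call was lost without doxorubicin array 1 (-0.40, adjusted p = 0.051) and without DMSO array 3 (-0.42, adjusted p = 0.056), and over all alternatives the adjusted p ran from 0.0031 to 0.056.

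The other 6 members did not pass the test of the difference. The intervals bound what these arrays leave room for. *ZMAT3* differed by -0.10 (95% confidence interval -0.47 to 0.28, adjusted p = 0.7) and *RPS27L* by -0.03 (95% confidence interval -0.28 to 0.22, adjusted p = 0.86). *CYFIP2* differed by -0.19 (95% confidence interval -0.47 to 0.09, adjusted p = 0.28), *FBXO22* by -0.18 (95% confidence interval -0.45 to 0.09, adjusted p = 0.29) and *AEN* by -0.16 (95% confidence interval -0.44 to 0.12, adjusted p = 0.37). *TRIAP1* differed by -0.27 (95% confidence interval -0.60 to 0.06, adjusted p = 0.19), the largest estimate towards nutlin-3 among these 6. The estimates of all 6 from their brightest probe sets were below 0, and the median difference over the 9 members was -0.16 against 0.07 for all genes. This sign depends on the probe set. Of *ZMAT3*, 219628_at, 225725_at and 227221_at had 0.21, 0.20 and 0.22, and 1555609_a_at had -0.40. *FBXO22* 1559214_at had 0.44 and *CYFIP2* 220999_s_at had 0.003. None of these was called. The remaining probe sets of *RPS27L* and *FBXO22* were below 0. Across the 9 members the 2 responses had a Pearson correlation of 0.94 and a Spearman correlation of 0.92, beside 0.44 and 0.34 across all 13673 genes. The members were chosen as responders to p53, and genes are not independent replicates. Neither agent's log2 change uses the other's control arrays. The SEs, intervals and adjusted p of both agents rest on a spread estimated from all 12 arrays together.

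**Figure D3:**
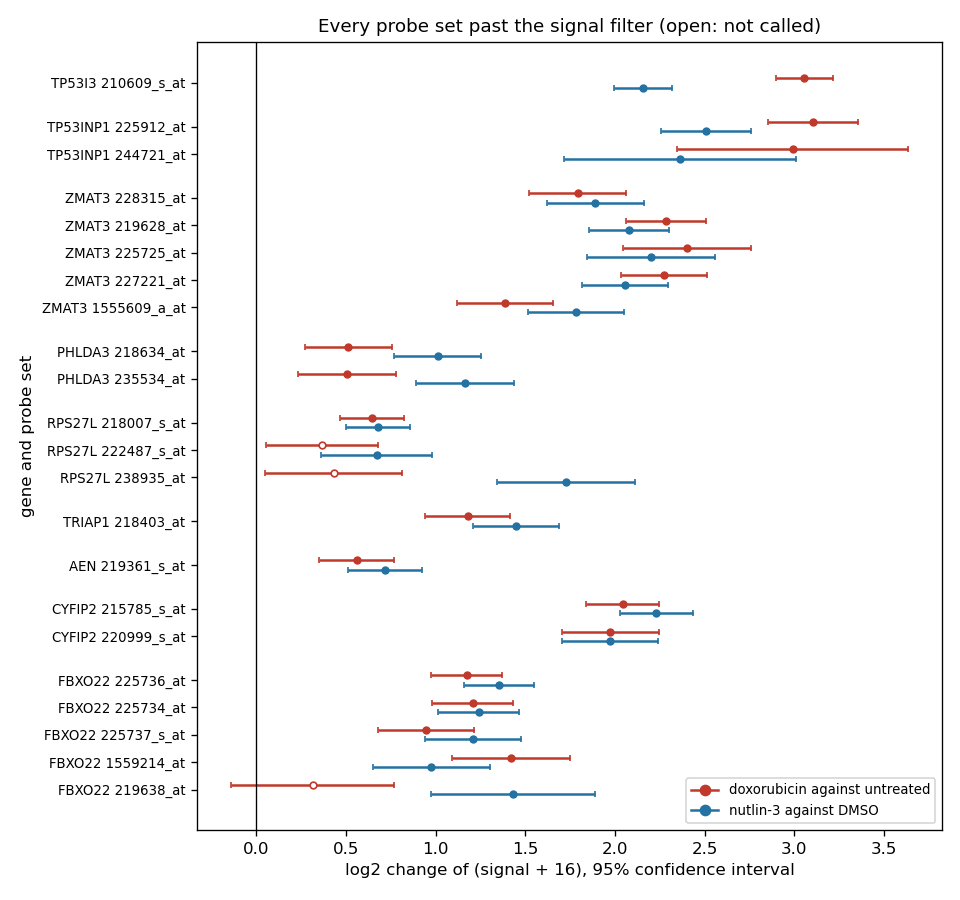
Log2 change with 95% confidence interval of each of the 22 member probe sets past the filter, grouped by gene, for doxorubicin against untreated (red) and nutlin-3 against DMSO (blue). Open points were not called. The open points are doxorubicin changes of 222487_s_at and 238935_at of *RPS27L* and of 219638_at of *FBXO22*.

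Probe sets of the same gene gave different answers for *RPS27L* and *FBXO22*. A fit of all 32768 probe sets past the filter called 22 of the 22 member probe sets higher with nutlin-3 and 19 higher with doxorubicin. Of all probe sets, 8.33% were called higher with nutlin-3 and 23.4% with doxorubicin. Without 244721_at, which passed the filter only through the treated groups, the member counts were 21 of 21 and 18 of 21. For the difference the fit called 2 member probe sets higher, where 15.3% of all probe sets were, and 4 lower, where 14.8% were. *RPS27L* probe set 238935_at read 1271, 1134 and 1372 on the doxorubicin arrays, against 798.6, 1012 and 987.1 on the untreated arrays. It read 1533, 2556 and 2583 on the nutlin-3 arrays, against 531.2, 791.1 and 630.1 on the DMSO arrays. Its nutlin-3 arrays lay above all others, while its log2 change was 0.43 (SE 0.18, adjusted p = 0.062) with doxorubicin and 1.73 (SE 0.18, adjusted p = 3.3e-06) with nutlin-3. The difference of these responses was -1.30 (95% confidence interval -1.84 to -0.76, adjusted p = 0.0011), where the brightest probe set of the gene had -0.03. The third probe set, 222487_s_at, had 0.36 (SE 0.15, adjusted p = 0.051) with doxorubicin and 0.67 (SE 0.15, adjusted p = 0.0038) with nutlin-3. When _x_at and _s_at probe sets were left out, *RPS27L* was read from 238935_at and its doxorubicin change of 0.43 was not called (adjusted p = 0.051, range over the alternatives 7.9e-07 to 0.051). With the mean of its probe sets the nutlin-3 change was 1.03 instead of 0.68.

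Of the 5 *FBXO22* probe sets, 219638_at stood apart. It read 94.9, 141.8 and 177.5 on the doxorubicin arrays, against 126.8, 103.3 and 87.3 on the untreated arrays. It read 291.9, 250.1 and 272.5 on the nutlin-3 arrays, against 97.5, 80 and 94.7 on the DMSO arrays. The doxorubicin and untreated arrays overlapped, and the nutlin-3 arrays lay above all of them. The log2 change was 0.32 (SE 0.21, adjusted p = 0.25) with doxorubicin and 1.43 (SE 0.21, adjusted p = 0.00014) with nutlin-3, and the difference was -1.12 (95% confidence interval -1.76 to -0.47, adjusted p = 0.011). The other 4 probe sets rose by 0.95 to 1.42 with doxorubicin and by 0.98 to 1.35 with nutlin-3, and none of them passed for the difference. The *PHLDA3* probe sets gave the same order of the agents, with a difference of -0.66 (95% confidence interval -1.04 to -0.27, adjusted p = 0.012) for 235534_at.

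The controls themselves were compared because each agent is read against a different one. With DMSO against untreated 1 of the 9 members was lower, where 5.98% of all genes were called lower, and 0 were higher, where 8.14% were. The gene was *ZMAT3*, whose brightest probe set had a log2 change of -0.69 (SE 0.12, adjusted p = 0.0017). Its signal was 1629, 2089 and 1761 on the DMSO arrays, against 2893, 2681 and 3256 on the untreated arrays, and every DMSO array was below every untreated array, as for 14.8% of all genes. The other 4 *ZMAT3* probe sets had changes of -0.06 to 0.16 and none was called, and with the mean of all probe sets of the gene the change was -0.10 (adjusted p = 0.43, range over the alternatives 0.00033 to 0.43). Among all member probe sets 1 was higher and 1 lower, where 5.61% and 7.84% of all probe sets were. The one that was higher was *FBXO22* 1559214_at, with 697.4, 519.9 and 471.9 on the DMSO arrays, against 331.8, 312.8 and 333.1 on the untreated arrays. Both comparisons of the agents share an array group with this one.

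Of 3 controls chosen among those with probe sets at both ends, 2 had higher ratios of 3' to 5' signal with doxorubicin. The ratio of 3' to 5' signal of the *ACTB* control probe sets averaged 3.12 ± 0.577 (SD, n = 3 in each group) on doxorubicin arrays and 1.53 ± 0.0754 on untreated arrays, and 1.31 ± 0.0260 with nutlin-3 and 1.28 ± 0.0281 in DMSO. For the *dap* control it averaged 5.79 ± 2.54 on doxorubicin arrays and 2.71 ± 0.279 on untreated arrays, without overlap. For *GAPDH* it averaged 1.07 ± 0.116 on doxorubicin arrays and 1.02 ± 0.0356 on untreated arrays, which overlapped. The part of these ratios in the members' changes was not tested. With any 1 of the 12 arrays left out, 9 of 9 members were higher with each agent. With array medians set equal, 9 of 9 members were also higher with each agent, but 17 instead of 19 member probe sets were called with doxorubicin, and the *PHLDA3* change with doxorubicin was 0.33 (adjusted p = 0.045, range over the alternatives 0.00028 to 0.045) instead of 0.51. The median change of all genes with doxorubicin was then -0.10 instead of 0.08. Under that scaling 38.4% of the calls with doxorubicin were higher instead of 54.0%, 39.6% of those for the difference instead of 55.3%, and 80.3% of those for DMSO against untreated instead of 57.7%. Of 7 osteoblast and mesenchymal markers 5 passed the filter, and *COL1A2* and *ALPL* did not. The 7 markers had summed signals of 84333 to 93335 with doxorubicin, 80181 to 87703 in untreated cells, 78911 to 87647 with nutlin-3 and 74605 to 83255 in DMSO. Within the list, *RUNX2* fell by 0.75 (SE 0.13) with doxorubicin and by 0.38 (SE 0.13) with nutlin-3, *COL1A1* rose by 0.26 (SE 0.09) with doxorubicin, and *CDH11* rose by 0.43 (SE 0.10) with nutlin-3 and fell by 0.58 (SE 0.10) in DMSO against untreated. The 4 epithelial markers, of which 3 passed the filter, summed to 1413 to 1733 with doxorubicin, 2059 to 2232 in untreated cells, 785.5 to 894.7 with nutlin-3 and 1082 to 1282 in DMSO. Of these, *EPCAM* fell by 0.31 (SE 0.10) with doxorubicin and by 0.68 (SE 0.10) with nutlin-3, and *KRT14* fell by 1.66 (SE 0.24) with doxorubicin. In DMSO against untreated *EPCAM* fell by 0.68 (SE 0.10) and *KRT14* fell by 1.79 (SE 0.24). Of 5 leukocyte markers 4 had a probe set and 2 passed the filter, and of 3 endothelial markers 1 passed. The leukocyte markers summed to at most 298.3 and the endothelial markers to at most 312.9 on any array. None of those past the filter was called with an agent, and the others were not tested. The part of these markers in the members' changes was not tested.

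Most other genes of the p53 response were higher with both agents too. Of 58 further p53 targets, in a list written with earlier results of these data known, 52 were measured, so that their counts are a description. With doxorubicin 47 rose and 2 fell, where 30.1% of all genes rose and 25.6% fell. The median log2 change was 1.46 against 0.08 for all genes. With nutlin-3 45 rose and 1 fell, where 12.5% of all genes rose and 13.9% fell. The median was 1.18 against 0.01 for all genes. The largest rises with doxorubicin were those of *PADI4*, a peptidylarginine deiminase gene, at 6.68 (SE 0.28), *GDF15*, a stress cytokine gene, at 5.46 (SE 0.22), and *FUCA1*, a lysosomal fucosidase gene, at 3.51 (SE 0.09). The largest with nutlin-3 were those of *GDF15* at 3.55 (SE 0.22), *PADI4* at 2.70 (SE 0.28) and *CDKN1A*, the gene of the cell cycle inhibitor p21, at 2.30 (SE 0.11). *ASCC3*, a helicase gene, fell by 0.69 (SE 0.11) with doxorubicin and rose by 1.18 (SE 0.11) with nutlin-3. *STEAP3*, a metalloreductase gene, fell by 0.40 (SE 0.09) with doxorubicin and fell by 0.36 (SE 0.09) with nutlin-3. For the difference 26 of the 52 were called higher and 5 lower, where 21.8% of all genes were higher and 17.7% lower. The median difference was 0.45 against 0.07 for all genes. Whether the members differ from these targets was not tested.

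**Figure D4:**
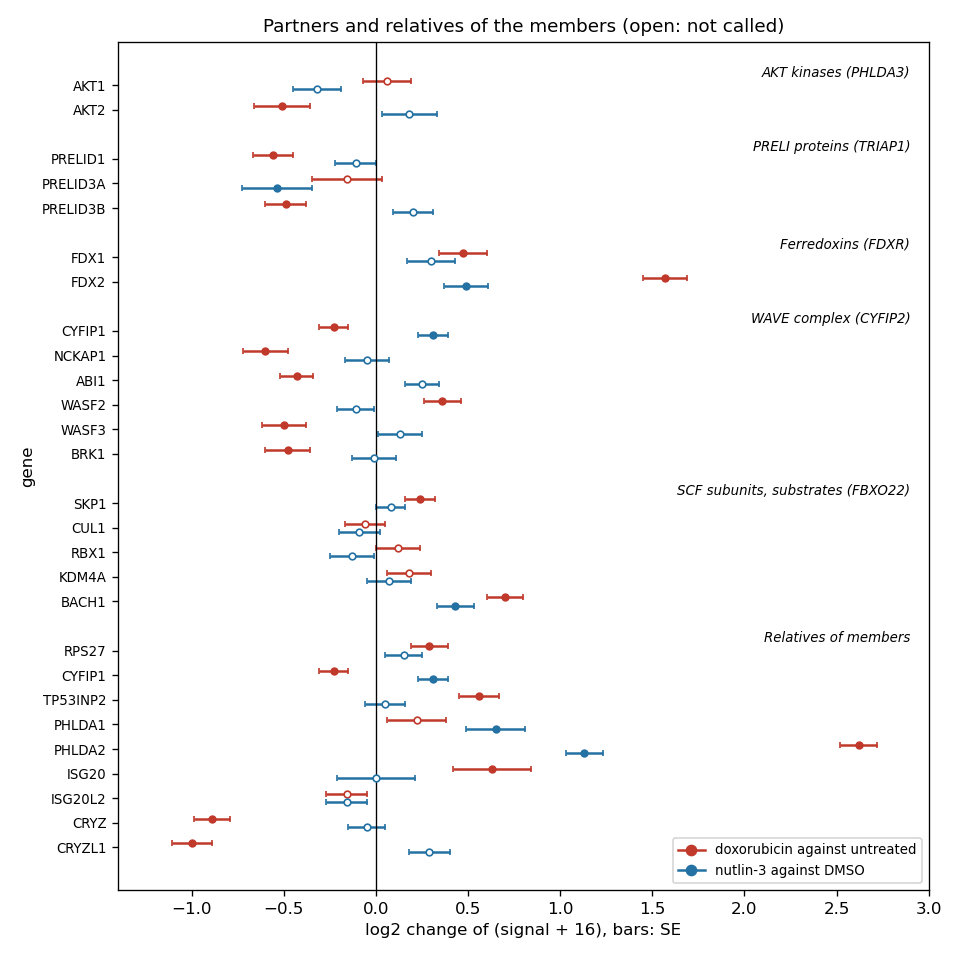
Log2 change (horizontal axis, bars are SE, 3 arrays per group) of genes whose products work with the members and of relatives of the members, for doxorubicin against untreated (red) and nutlin-3 against DMSO (blue). Open points were not called. *PHLDA2* (2.62 and 1.13) and *FDX2* (1.57 and 0.49) lie far to the right, and *CRYZL1* has the lowest doxorubicin point.

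Genes whose products work with the members moved in both directions. Of the 6 measured genes of the WAVE complex other than *CYFIP2*, 5 fell and 1 rose with doxorubicin, and 1 rose with nutlin-3. Of all genes, 25.6% fell and 30.1% rose with doxorubicin, and 12.5% rose with nutlin-3. With doxorubicin *NCKAP1* fell by 0.60 (SE 0.12), *WASF3* fell by 0.50 (SE 0.12), *BRK1* fell by 0.48 (SE 0.12) and *ABI1* fell by 0.43 (SE 0.09), while *WASF2* rose by 0.36 (SE 0.10). *CYFIP1*, the close relative of *CYFIP2*, had log2 changes of -0.23 (SE 0.08, adjusted p = 0.022) with doxorubicin and 0.31 (SE 0.08, adjusted p = 0.0078) with nutlin-3, and a difference of -0.54 (SE 0.11, adjusted p = 0.0012). All 6 passed for the difference, 5 of them lower with doxorubicin, where 17.7% of all genes were called lower and 21.8% higher. *NCKAP1L*, *ABI2* and *WASF1* had no probe set past the filter.

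Of the PRELI protein genes, whose products belong to the family that TRIAP1 binds, *PRELID1* fell by 0.56 (SE 0.11) and *PRELID3B* fell by 0.49 (SE 0.11) with doxorubicin, and *PRELID3A* fell by 0.54 (SE 0.19) with nutlin-3. *AKT2*, a kinase gene of the pathway that PHLDA3 restrains, fell by 0.51 (SE 0.15) with doxorubicin. *AKT1* had 0.06 (SE 0.13) with doxorubicin and -0.32 (SE 0.13) with nutlin-3 and passed with neither. *SKP1*, an SCF subunit gene, rose by 0.24 (SE 0.08) with doxorubicin. *BACH1*, which encodes a repressor degraded through FBXO22, rose by 0.70 (SE 0.10) with doxorubicin and rose by 0.43 (SE 0.10) with nutlin-3. *CUL1*, *RBX1* and *KDM4A* passed with neither agent. *FDX2*, a ferredoxin gene whose protein takes electrons from FDXR, rose by 1.57 (SE 0.12) with doxorubicin and rose by 0.49 (SE 0.12) with nutlin-3. *FDX1* rose by 0.47 (SE 0.13) with doxorubicin and had 0.30 (SE 0.13) with nutlin-3, which did not pass.

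Relatives of the members also went in both directions. *RPS27* had log2 changes of 0.29 (SE 0.10, adjusted p = 0.018) with doxorubicin and 0.15 (SE 0.10, adjusted p = 0.29) with nutlin-3, beside 0.65 and 0.68 for *RPS27L*. Whether probes of such close copies share signal was not tested. *PHLDA2* rose by 2.62 (SE 0.10) with doxorubicin and rose by 1.13 (SE 0.10) with nutlin-3, the order of the agents opposite to that of *PHLDA3*. *PHLDA1* had 0.22 (SE 0.16) with doxorubicin and rose by 0.65 (SE 0.16) with nutlin-3, with -1.89 (SE 0.16) for DMSO against untreated. *TP53INP2* rose by 0.56 (SE 0.11) with doxorubicin and had 0.05 (SE 0.11) with nutlin-3. *ISG20*, an exonuclease gene related to *AEN*, rose by 0.63 (SE 0.21) with doxorubicin, and *ISG20L2* passed with neither agent. Of the quinone oxidoreductase genes related to *TP53I3*, *CRYZ* fell by 0.89 (SE 0.10) and *CRYZL1* fell by 1.00 (SE 0.11) with doxorubicin, with -0.05 (SE 0.10) and 0.29 (SE 0.11) with nutlin-3.

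The 5 other genes whose log2 values over the 12 arrays were most like the mean standardised profile of the 9 members were *CDKN1A* (Pearson r = 0.9935), *RAC2* (0.9888), *PARD6G* (0.9872), *APOBEC3C* (0.9871) and *FAM83H* (0.9860). The points are arrays of 4 groups, so these values follow the steps between groups. *RAC2*, a small GTPase gene, had log2 changes of 0.89 with doxorubicin and 1.20 with nutlin-3. *PARD6G*, a cell polarity gene, had 1.44 with doxorubicin and 1.89 with nutlin-3. *APOBEC3C*, a cytidine deaminase gene, had 1.65 with doxorubicin and 1.80 with nutlin-3, and *FAM83H* had 1.30 with doxorubicin and 1.32 with nutlin-3.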

How the data were processed

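For each array the authors deposited linear signal intensities by probe set, made with MAS5 per the submitters' processing notes. No version or settings are given in the sources used here. The 2% trimmed means of the arrays were 500.06 to 500.07, medians lay between 79.6 and 113.6, and arrays of a group correlated at 0.98 to 0.991 across genes. There are no detection calls, and the number of arrays limits the precision.

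Values were turned into log2(value + 16), which understates changes of dim genes. The 62 control probe sets and probe sets under the 40th percentile of mean log2 value (signal 49.3) were left out, leaving 32768. The annotation gave 1 symbol for 41097 probe sets, several for 1801 and did not list 11777. Symbols were updated by gene identifier against RefSeq (GRCh38.p14), and 13657 of 13673 genes had a current one. Each gene was its brightest probe set with 1 symbol. limma 3.58.1 in R 4.3.3 (lmFit, eBayes with trend) fitted 4 group means over 12 arrays, and all probe sets past the filter were fitted likewise. The fit was run on simulated data with independent noise and, for each probe set, the same spread in every group. Groups of unequal spread were not covered by the simulation. Alternatives covered scaling, pseudocounts of 1 and 64, no filter and the 60th percentile, no trend, arrays of the compared groups alone, the replicate number as a block, other choices of probe set, and each array left out.

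The named genes were all members and their probe sets, all measured genes of the partner and relative lists, per agent the 3 largest rises and falls among further p53 targets, and the 5 genes of most similar pattern. Members and lists were chosen with earlier results of these data known. Promoter sequences are from RefSeq (GRCh38.p14). *PHLDA3* and *FBXO22* had no promoter entry in the sources used here. *TP53INP1* was left out of the member windows by choice, after the search of all windows. The member counts of that search depend on this choice.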

Additional observations from a re-analysis of the deposited data

Results flagged for a closer look

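The response to doxorubicin and the response to nutlin-3 differed, by limma's test of the difference over all genes or probe sets, for 3 members and for 3 further probe sets. *TP53I3* rose more with doxorubicin by 0.90 on the log2 scale and *TP53INP1* by 0.60. *PHLDA3* had a difference of -0.50, and its other probe set 235534_at had -0.66. The calls of *TP53INP1* and *PHLDA3* as genes did not hold under every alternative. *RPS27L* probe set 238935_at had a difference of -1.30 and *FBXO22* probe set 219638_at had -1.12, both set apart from the brightest probe set of the same gene, at -0.03 and -0.18. The *TP53I3* and *TP53INP1* differences run opposite to the other 4.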

How the results depend on the processing

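All 9 members were called higher with nutlin-3 in every alternative, and all 9 with doxorubicin in every alternative but 1, where *RPS27L* was not called with probe sets other than _x_at and _s_at. Of 819 values of single members under the alternatives, 811 kept their side of the threshold, 5 lost the call and 3 gained it, and no called value changed sign. For the difference of the responses the number of members called was 3, with 2 to 3 when each array was left out and 4 at most. *TRIAP1* gained the call with the replicate number as a block (-0.27, adjusted p = 0.038, range over the alternatives 0.038 to 0.46). *RPS27L* gained it with the mean of all its probe sets (-0.54, adjusted p = 0.0063) and with probe sets of neither the _x_at nor the _s_at type (-1.30, adjusted p = 0.00065), with a range of 0.00065 to 0.99. With the mean of all probe sets of a gene 0 members were called for DMSO against untreated, where 1 was called otherwise; this averages *ZMAT3* over 5 probe sets.

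Whether the replicate numbers pair the arrays is not settled by these values. Deviations of same-numbered arrays from their group means correlated at -0.089 to -0.02 for doxorubicin and untreated and at -0.005 to 0.172 for nutlin-3 and DMSO, and 0 of 3 and 1 of 3 treated arrays correlated best with their own number. For DMSO and untreated they correlated at 0.007 to 0.1, and 1 of 3 DMSO arrays correlated best with its own number. Over all genes the replicate block gave 7824 calls instead of 7616 with doxorubicin and 3896 instead of 3613 with nutlin-3. It gave 5688 instead of 5396 for the difference and 2279 instead of 1930 for DMSO against untreated. With the replicate block 9 members were called with doxorubicin, 9 with nutlin-3, 4 for the difference and 1 for DMSO against untreated, and of the member probe sets 20, 22, 7 and 3. Over all genes DMSO against untreated gave 1930 calls, and 1236 without untreated array 1, 1185 without DMSO array 2 and 1100 without DMSO array 3. The cause was not tested. MAS5 signals without detection calls limit what can be said of probe sets near the filter signal.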
